A study of Mus musculus with 2 samples.

Results

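The cells described here are tumour monocytes with RNA of Chil3, Hp and Mgst1, 190 of the 2611 cell barcodes of 2 single-cell libraries. They were selected on their own unique molecular identifiers (UMIs, single captured RNA molecules). A member has at least 10 UMIs of Lyz2 and at least 3 over Chil3, Hp and Mgst1 together, which is called its score. Other conditions remove neighbouring cell types: under 10 UMIs over C1qa, C1qb and C1qc, at most 1 over Cd3d, Cd3e and Cd3g, at most 1 over Cd209a, Cd209d, Flt3, Xcr1, Clec9a and Ccr7, and fewer than 3 of Hspb1, Pgf, Sdc1, Rhov and Arg2 detected. Chemokine limits complete the rule, with under 5 UMIs over Cxcl9 and Cxcl10 and under 3 over Cxcl1, Cxcl3 and Inhba. Of the members, 149 are in the control library and 41 in the Nrp1L/L library. Cells that pass every other condition with a score under 3 number 67 and 16, and are called maturing monocytes here.

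The study sorted CD45+ cells, the haematopoietic cells, out of B16 melanomas of female C57BL/6 mice aged 5 weeks, on day 14. Control mice were Foxp3Cre-YFP and the others Nrp1L/LFoxp3Cre-YFP, so both carry the Foxp3-driven Cre recombinase with its YFP label and only the second has the floxed Nrp1 alleles. Foxp3 is a gene of regulatory T cells, so the recombinase is directed to those cells and not to monocytes. Members held no Foxp3 UMI. Control members had 35 Nrp1 UMIs in 19 of 149 cells and Nrp1L/L members 8 in 4 of 41. As levels in CPM, a unit defined below, these were 30.7 (21.4 to 42.6) in control and 23.5 (10.1 to 46.2) in Nrp1L/L members. The counting intervals overlapped. CD3 cells with a Foxp3 UMI numbered 3 in each library, too few to check the deletion, and a 3' tag count does not show which part of a gene is missing.

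Each genotype is 1 library. Whether a library pools mice is not given in the sources used here, and no difference has a replicate check, a test or a p-value. Intervals are 95% and exact (Clopper-Pearson for shares, Poisson for levels, conditional binomial for ratios), and cover counting error only. Levels are counts per 1000000 UMIs (CPM) summed over the cells of a population, and are compared between cells and not between genes.

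The control library holds 1310 barcodes with a median of 8079.5 UMIs and the Nrp1L/L library 1301 with a median of 5334. Members were closer in depth, with medians of 7660 UMIs (range 3624 to 15232) and 8284 (3122 to 15477). Summed over members, the control had 1141602 UMIs and Nrp1L/L had 340920, of which the deepest single cell gave 1.33% and 4.54%. The libraries share 3 barcode sequences, 1 of them a member in either library.

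Classical monocytes are made in bone marrow, carry Ly6C (encoded by Ly6c2) and the chemokine receptor CCR2, and enter inflamed tissue and tumours from blood. There they lose their early genes and become macrophages or antigen-presenting cells with MHC class II. Chil3 encodes Ym1, a secreted chitinase-like protein, Hp encodes haptoglobin, which binds free haemoglobin, and Mgst1 encodes a membrane-bound glutathione transferase. C/EBP transcription factors drive many genes of young myeloid cells, while MHC class II promoters carry a Y box bound by NF-Y beside other elements that recruit the activator CIITA.

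The promoter of Chil3 is shown because this gene gave most of the UMIs that chose the members, and those of H2-Aa and H2-Eb1 because these MHC class II genes had lower levels in members than in maturing cells of both libraries. All are from RefSeq on GRCm38.p6 and run from 250 bases before the transcription start to 50 after it, on the strand of the gene. Chil3 is at chr3:106167515-106167814 on the minus strand, with matches to the C/EBP-like motif TTNNGNAA, searched on both strands, in capitals. H2-Aa is at chr17:34287774-34288073 on the minus strand and H2-Eb1 at chr17:34305617-34305916 on the plus strand, with the Y box CTGATTGG, also searched on both strands, in capitals.
Chil3 promoter: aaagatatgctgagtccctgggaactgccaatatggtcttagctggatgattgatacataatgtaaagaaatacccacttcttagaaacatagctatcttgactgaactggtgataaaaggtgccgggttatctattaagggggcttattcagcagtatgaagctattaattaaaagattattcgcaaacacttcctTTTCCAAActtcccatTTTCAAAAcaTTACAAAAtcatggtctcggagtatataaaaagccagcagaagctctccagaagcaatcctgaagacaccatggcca
H2-Aa promoter: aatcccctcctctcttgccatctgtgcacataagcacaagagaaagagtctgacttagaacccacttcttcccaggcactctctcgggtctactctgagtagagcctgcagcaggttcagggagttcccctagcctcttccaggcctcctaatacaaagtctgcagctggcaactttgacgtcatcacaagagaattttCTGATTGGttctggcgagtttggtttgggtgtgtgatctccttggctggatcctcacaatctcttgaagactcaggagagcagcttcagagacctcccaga
H2-Eb1 promoter: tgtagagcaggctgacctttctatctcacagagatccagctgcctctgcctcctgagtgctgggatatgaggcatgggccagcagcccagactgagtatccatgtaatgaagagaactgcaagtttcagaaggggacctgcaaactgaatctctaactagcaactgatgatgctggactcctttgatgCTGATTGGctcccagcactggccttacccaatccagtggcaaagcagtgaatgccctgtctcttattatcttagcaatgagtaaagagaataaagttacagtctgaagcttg
The Chil3 promoter held 3 matches, all on the opposite strand, starting at bases 198, 214 and 224 of the window. The Y box started at base 200 in H2-Aa and 189 in H2-Eb1. A match is a description and not a site. TTNNGNAA matched 40.7% of 32851 mouse promoters of this length, and all 3 markers looked up (Chil3, Mgst1 and Ly6c2). CTGATTGG matched 4.10% of all promoters. Of the 8 MHC class II list genes 5 were looked up, and 3 of them matched, H2-Aa, H2-Eb1 and H2-Oa. The lookup of list genes left out a chromosome that the share over all promoters includes.

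The values that chose the members are given as a description. Chil3 had a level of 3188 CPM (3086 to 3294) in control members and 2766 (2592 to 2948) in Nrp1L/L members. A control member had a median of 13 Chil3 UMIs and at most 133, and an Nrp1L/L member a median of 10 and at most 116. Chil3 was slightly lower in the Nrp1L/L library, and it was found in 123 of 149 control and 32 of 41 Nrp1L/L members.

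Hp had 744 CPM (695 to 795) in control and 745 (656 to 843) in Nrp1L/L members. Mgst1 had 439 CPM (401 to 479) in control and 810 (717 to 911) in Nrp1L/L members. Hp was level between the libraries and Mgst1 was higher in Nrp1L/L. Mgst1 was found in 82 of 149 control members (55.0%) and 30 of 41 Nrp1L/L members (73.2%), against 0.70% and 0.66% of CD3 cells. After each member was thinned to 2500 UMIs, the share with Mgst1 was 41.6% (33.6 to 49.96) in control and 68.3% (51.9 to 81.9) in Nrp1L/L.

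CD3 cells, which should lack these genes, show how much free RNA is counted. Chil3 was in 5.61% of 428 control and 1.85% of 757 Nrp1L/L CD3 cells, at median depths of 7681.5 and 5124 UMIs, and its level there was 5.70 and 2.86 CPM. A score of 3 was met by 1 CD3 cell of the control library and 0 of 757 in the Nrp1L/L library, which allows a share of up to 0.396% by a limit of 3 counts. The score is not limited to the members, since 28.5% of control and 26.5% of Nrp1L/L C1q macrophages (cells with at least 10 UMIs of the C1q genes) also met it.

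The 3 score genes did not mark the same cells evenly. All 3 were detected together in 52 of 149 control members (34.9%) and 15 of 41 Nrp1L/L members (36.6%), while 33 control members and 7 Nrp1L/L members had Chil3 alone. A score of 20 or more was reached by 49.7% of control and 58.5% of Nrp1L/L members. At the lower edge, control cells with a score of 2 (11 cells, outside) and 3 (10 cells, inside) had Ly6c2 at 1500 and 1768 CPM, Ccr2 at 362 and 405, and Plac8 at 9815 and 7493. Cells on either side of the limit thus lay near each other in these genes, and the Nrp1L/L library had only 3 and 1 cells at those scores.

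**Figure D1:**
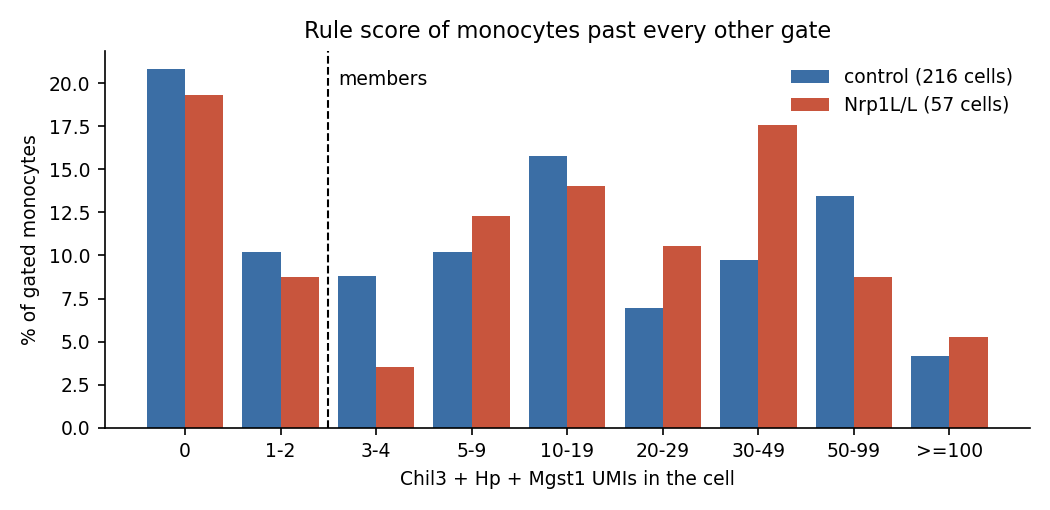
Distribution of the summed Chil3, Hp and Mgst1 UMIs per cell (horizontal axis, binned) as a percentage of gated monocytes (vertical axis) in 216 control and 57 Nrp1L/L cells. Members have a score of 3 or more, and both libraries have cells at 0 and a broad spread above the limit.

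The label of early monocyte was checked against markers outside the score. Ccr2 had 614 CPM in control and 675 in Nrp1L/L members. Plac8, a gene of classical monocytes, had 8795 and 11173 CPM. Both were present in the members of either library, and neither was limited to them. Maturing monocytes had Ccr2 at 333 and 239 CPM and Plac8 at 5249 and 4980. Monocytes left out by the Cxcl9 and Cxcl10 limit had Ccr2 at 342 and 491 CPM and Plac8 at 8145 and 10712. Presence of these genes alone does not show that the members are early.

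Ly6c2 had 2531 CPM (2439 to 2625) in control and 3713 (3512 to 3924) in Nrp1L/L members. It did not mark these cells alone: Ly6c2 had 951 and 2457 CPM in CD3 cells, 840 and 2279 in C1q macrophages and 1316 and 4126 in maturing monocytes. The log2 ratio of Nrp1L/L over control was 0.55 (0.46 to 0.65) in members, 1.65 in maturing monocytes, 1.44 in C1q macrophages and 1.37 in CD3 cells. Ly6c2 was thus higher in the Nrp1L/L library in each of these 4 populations, and the difference between populations was not tested.

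Markers of neutrophils and conventional dendritic cells were mostly near 0, and the sum of patrolling monocyte markers was not, mainly through Nr4a1. Of the 7 neutrophil markers, S100a9, Retnlg, Mmp9 and Ly6g had 0 UMIs in both libraries and S100a8 had 15 and 0. The summed neutrophil list had 70 UMIs (61.3 CPM) in control and 33 (96.8 CPM) in Nrp1L/L members, of which Csf3r, also a gene of monocytes, gave 54 and 33. The genes that define neutrophils were thus at or near 0. The 6 conventional dendritic markers had 7 and 1 UMIs, with Xcr1, Clec9a and Zbtb46 at 0 in both libraries. The 6 patrolling monocyte markers, among them Nr4a1, Ace and Treml4, had 606 UMIs (531 CPM) in control members, of which 77 of 149 held at least 3, and 203 UMIs (595 CPM) in Nrp1L/L members, of which 23 of 41 did. Nr4a1 gave most of these UMIs. At scores of 3 to 9, 10 to 29 and 30 or more it had 124, 183 and 192 in control members. In Nrp1L/L members it had 25, 53 and 98. Ace had 5, 16 and 0 at the same steps in control and 0, 4 and 0 in Nrp1L/L. Cd300e was at 0 in Nrp1L/L members, and in maturing monocytes the list had 523 CPM in control and 14 UMIs (119.6 CPM) in Nrp1L/L. Their part in the results was not tested.

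The 3 CD3 genes had 20 and 12 UMIs, 4 NK cell markers 68 and 25, 4 B cell markers 10 and 0, and 4 melanoma markers 9 and 3. The 3 plasmacytoid dendritic markers had 19 and 24 UMIs. Mcpt8, a basophil protease, had 22 UMIs, all in 1 Nrp1L/L cell. Macrophage markers were not absent: the 8 of them summed to 3277 CPM in control and 2898 in Nrp1L/L members, against 4015 and 1691 in maturing monocytes. Apoe, an apolipoprotein of macrophages, had 2422 and 2291 CPM in members and 4407 and 2571 in C1q macrophages.

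**Figure D2:**
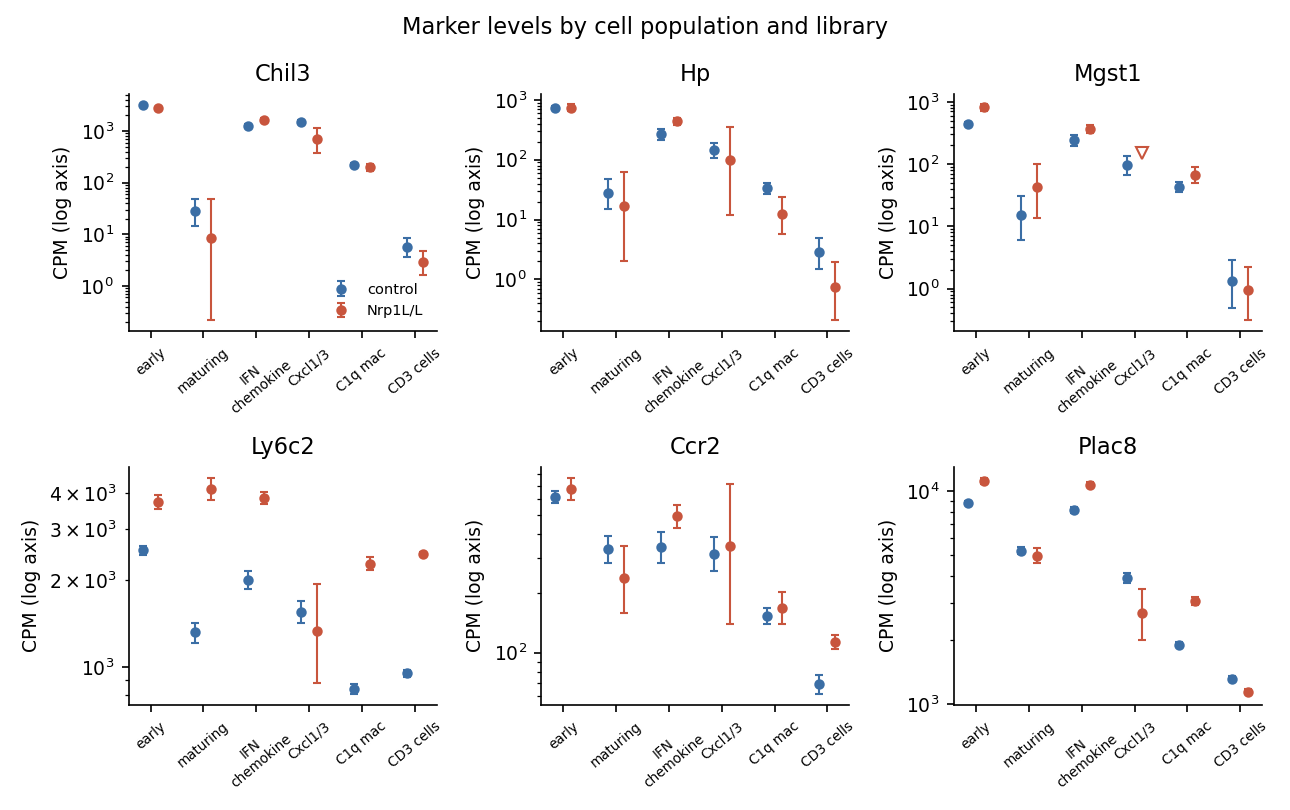
Levels in CPM (vertical axis, log scale) of 6 genes in the cell populations (horizontal axis) of the control and Nrp1L/L libraries, with 95% counting intervals. Open triangles stand for 0 UMIs, drawn at the level of 3 counts, and Chil3 lies at 3188 and 2766 CPM in members and at 5.70 and 2.86 in CD3 cells, while Ly6c2 is spread over the populations.

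The first comparison asked how large the early monocyte population was in the tumours of the 2 hosts. Members made up 11.4% (9.70 to 13.2) of barcodes in the control library and 3.15% (2.27 to 4.25) in the Nrp1L/L library. The control share was higher by 8.22 percentage points. A share of barcodes also moves with the number of other cells, and CD3 cells numbered 428 in control and 757 in Nrp1L/L.

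Within cells with at least 10 Lyz2 UMIs, members made up 25.6% (22.1 to 29.3) in control and 18.8% (13.8 to 24.6) in Nrp1L/L, with intervals that overlap. Of members and maturing monocytes together, members were 69.0% (62.4 to 75.1) and 71.9% (58.5 to 83.0). The balance of early and maturing cells was thus within counting error between the libraries, in intervals that leave room for a difference.

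The chemokine limits took different shares from the libraries. With those limits lifted, 198 control and 90 Nrp1L/L cells met the score, which is 66.9% and 76.3% of monocytes before the limits and 15.1% and 6.92% of barcodes. Of these, 29 control cells (14.6%, 10.03 to 20.4) and 48 Nrp1L/L cells (53.3%, 42.5 to 63.9) had at least 5 UMIs of Cxcl9 and Cxcl10, chemokines induced by interferon gamma. At least 3 UMIs of Cxcl1, Cxcl3 and Inhba were met by 20 control cells (10.1%) and 1 Nrp1L/L cell (1.11%). More than 50% of the Nrp1L/L cells with the early genes were thus outside the rule through Cxcl9 and Cxcl10, and each genotype difference that follows is among the cells that the limits left.

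The second comparison described how members differed from maturing monocytes within each library. MHC class II genes were lower in members of both libraries, and a part of the classical monocyte genes, with single genes of glutathione metabolism such as Gsr, were higher. The score chose both sets of cells, so these values are a description. A gene was counted where it differed at least 1.5-fold the same way in both libraries, which held for 237 of 2759 genes higher in members (8.59%) and 109 lower (3.95%), while 90 passed that fold in opposite directions. The median log2 ratio over all genes was 0.07 in control and 0.10 in Nrp1L/L, where only 16 maturing cells stand behind it and 1 of them gave 15.7% of their UMIs.

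Of 6 measured MHC class II genes, 5 were lower in members of both libraries, with list medians of -1.38 in control and -1.99 in Nrp1L/L. H2-Aa, the alpha chain of I-A, had 1741 CPM in control members against 5145 in maturing cells, and 1320 against 7158 in Nrp1L/L. These are log2 ratios of -1.56 (-1.65 to -1.48) and -2.44 (-2.61 to -2.27). Both libraries had the lower level in the members.

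H2-Eb1, the beta chain of I-E, had 1088 against 4047 CPM in control and 859 against 5100 in Nrp1L/L, for log2 ratios of -1.90 and -2.57. H2-Ab1 was at -1.54 and -2.11 and Cd74, the invariant chain that guides MHC class II, at -1.22 and -1.86. H2-DMb1, part of the complex that loads peptides, was at -0.79 and -1.56. Per cell, the summed list had a median of 27.6 UMIs per 10000 (range 1.17 to 1038) in control members and 10.9 (1.198 to 540.03) in Nrp1L/L members. Maturing cells had medians of 136 and 356, and the ranges of members and maturing cells overlapped.

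The MHC class II level was lower at high scores than at low ones, though not at every step. In control cells with a score of 0, 1 to 2, 3 to 9, 10 to 29 and 30 or more, the list had 31264, 19667, 22664, 8888 and 5106 CPM. In Nrp1L/L the same steps gave 44888, 23295, 21852, 9042 and 2858 CPM. In control the level was higher at 3 to 9 than at 1 to 2. The top step was lowest in both libraries, and members with a score of 3 to 9 lay near the cells just under the limit.

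**Figure D3:**
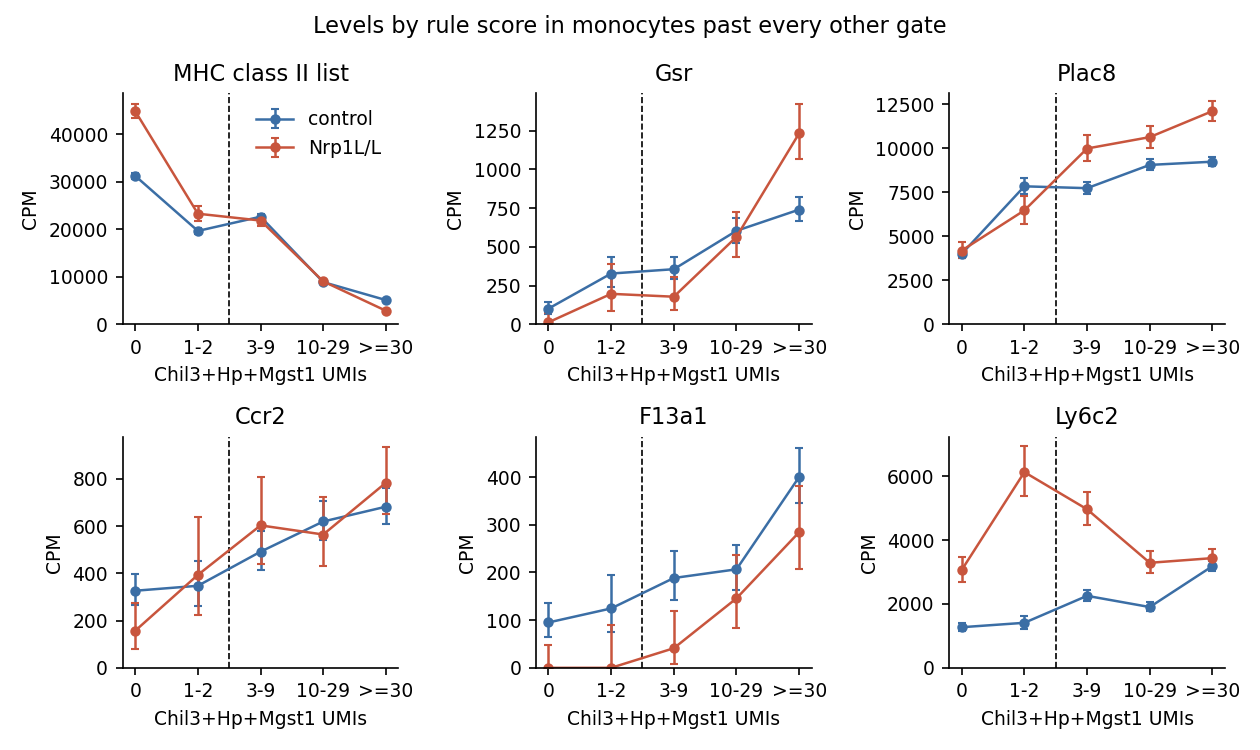
Levels in CPM (vertical axes) of the MHC class II list and of Gsr, Plac8, Ccr2, F13a1 and Ly6c2 by score (horizontal axes) in control and Nrp1L/L gated monocytes, with 95% counting intervals and the member limit dashed. MHC class II went from 31264 to 5106 CPM over the control steps, while Gsr, Plac8, Ccr2 and F13a1 were highest at a score of 30 or more in both libraries.

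Of 28 measured classical monocyte genes, 11 were higher in members of both libraries and 1, Lyz1, was lower, with medians of 0.58 in control and 0.41 in Nrp1L/L. Smpdl3a, a phosphodiesterase, had 407 CPM in control members against 107 in maturing cells and 510.4 against 76.9 in Nrp1L/L. Its log2 ratios were 1.93 (1.51 to 2.38) and 2.73 (1.77 to 3.88). Members had the higher level in both libraries.

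F13a1, the coagulation factor XIII A chain, had 284 against 105 CPM in control and 64 against 0 UMIs in Nrp1L/L, so it was 1.44 higher on the log2 scale in control and at least 2.87 higher in Nrp1L/L. Ccr2 was higher by 0.88 and 1.5, and Plac8 by 0.74 and 1.17. Ifitm6, an interferon-induced membrane protein family member, was higher by 1.38 and 3.28, the second being 2.04 without the chemokine limits. Ly6c2 did not follow, at 0.94 in control and -0.15 (-0.30 to 0.00) in Nrp1L/L.

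Of 16 measured antioxidant genes, 3 were higher in members of both libraries (Msrb1, Gsr and Gstm1) and 1, Hmox1, was lower. Gsr, glutathione reductase, had 599 CPM in control members against 175 in maturing cells and 792 against 76.9 in Nrp1L/L, for log2 ratios of 1.77 and 3.36. Gstm1, a glutathione transferase as Mgst1 is, was at 2.24 in control and 4.10 (1.56 to 9.43) in Nrp1L/L, with 1 UMI in the Nrp1L/L maturing cells. Along the score Gsr went from 101 to 740.4 CPM in control and from 13.1 to 1233 in Nrp1L/L. Trf, which encodes the iron carrier transferrin, was at 1.57 and 3.82 (1.92 to 6.89), and Slpi, a secreted protease inhibitor, at 1.5 and 1.98. Without the chemokine limits, the Nrp1L/L ratio was 2.91 for Gstm1, 2.19 for Trf and 0.97 for Slpi, and the control ratio of Trf was 0.85.

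Other genes higher in members were Taldo1 of the pentose phosphate pathway, at 0.93 in control and 1.6 in Nrp1L/L, and Dmkn, at 1.35 and 2.39. The adhesion receptor gene Adgre5 was at 1.3 and 2.98 (1.37 to 5.29). Casp6 was at 1.61 and 4.29 (1.75 to 9.62), and Ap1s2 at 2.04 and 3.78 (1.22 to 9.12), both with 1 UMI in the Nrp1L/L maturing cells. Cd177 was higher by 2.33 in control and at least 1.40 in Nrp1L/L, C1galt1c1 by 2.13 and at least 2.08, and Dcaf11 by 2.04 and at least 1.33. These Nrp1L/L ratios rest on few UMIs in maturing cells, and without the chemokine limits they were 1.25 for Adgre5, 2.74 for Casp6 and 3.09 for Ap1s2.

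Among the chemotactic receptors, Ccr2, Ccr1 (0.62 and 1.05) and the leukotriene B4 receptor Ltb4r1 (0.71 and 2.03) were higher in members, 3 of 7 measured, with medians of 0.39 and 1.05.

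Among genes lower in members outside the MHC class II list, Mgl2, a lectin of macrophages and dendritic cells, had 4 UMIs against 40 in control and 3 against 30 in Nrp1L/L (log2 ratios -4.61 and -4.86, -7.22 to -3.18). The class II loading gene H2-DMb2 was at -2.52 and -2.54, Rgs1, a regulator of G protein signalling, at -1.63 and -3.27, and Ly6a at -1.36 and -1.74. Spp1, which encodes osteopontin, was at -1.39 and -4.27, and its control value was -0.33 without the chemokine limits and -0.63 with the rule on depth-scaled UMIs. The chemokine gene Ccl12 was at -1.61 and -1.93, and at 0.00 in control without those limits.

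The macrophage maturation list split, with 3 genes higher in members of both libraries (Csf1r, Sepp1 and Tmem176b) and 3 lower (Lgmn, Ctsl and Ms4a7) of 20 measured, and medians of -0.11 and -0.66. Type I interferon genes had 4 of 26 lower (Ly6a, Rsad2, Oasl1 and Slfn4) and 0 higher, with medians of -0.34 and -0.16. The interferon gamma list had 4 of 17 higher, Gbp2, Gbp3, Irf1 and Icam1, and 2 lower, Cd40 and Cd274. The iron list had 2 of 5 lower, Fth1 and Hmox1, and oxidative phosphorylation 0 of 29 the same way in both libraries, with medians of -0.02 in control and -0.62 in Nrp1L/L.

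**Figure D4:**
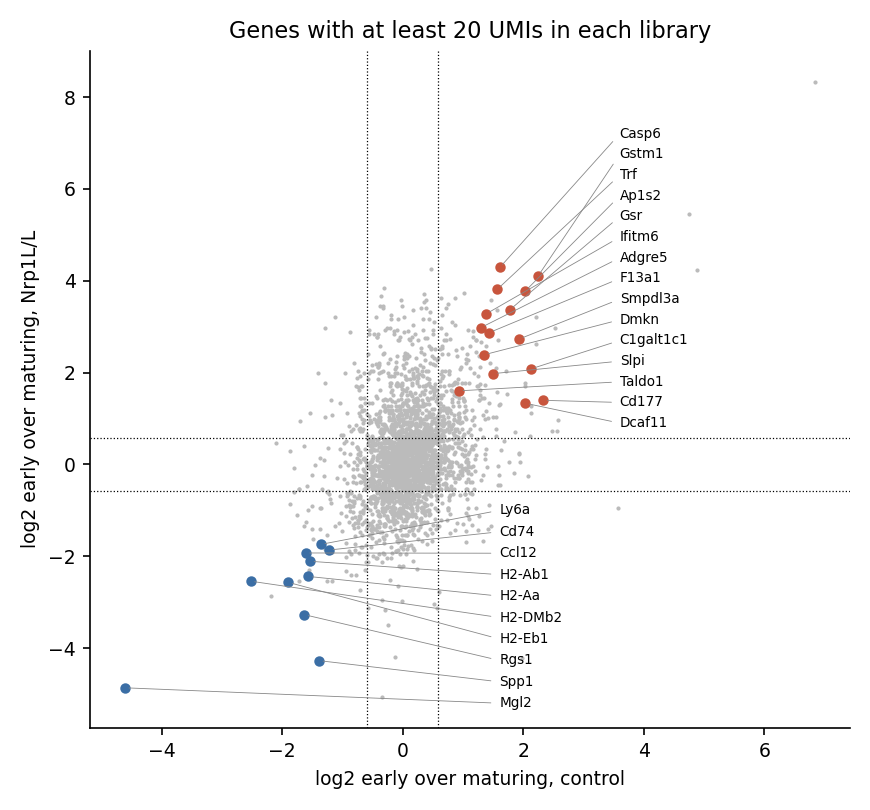
Log2 ratio of CPM in members over maturing monocytes for 2759 genes, in the control library (horizontal axis) against the Nrp1L/L library (vertical axis). Dotted lines are 1.5-fold, the named genes higher in members are red and those lower are blue, and H2-Aa lies at -1.56 and -2.44.

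The third comparison set Nrp1L/L members against control members, which are the same member cells as above. Interferon response genes were higher in the Nrp1L/L members, while cholesterol synthesis genes, the chemokine Cxcl2 and a group of pattern recognition receptors were lower. Over 5230 genes with at least 20 UMIs, 914 were at least 1.5-fold higher in Nrp1L/L (17.5%) and 1114 at least 1.5-fold lower (21.3%), with a median log2 ratio of -0.02. These shares are the background for each list. Members with at least 3 UMIs over the cell cycle list were 69 of 149 in control and 12 of 41 in Nrp1L/L. Whether these members were dividing was not tested, and Hmgb2 gave a large part of the UMIs of the list, as given below. Values without these members stand beside several genes below, as values without cells with cell cycle UMIs. Members with fewer such UMIs were kept.

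Of 19 measured interferon gamma response genes, 15 were higher and 0 lower in Nrp1L/L members, and all 19 lay above 0, with a median log2 ratio of 0.97. Gbp2, a guanylate-binding protein of cell-autonomous defence, had 516 CPM in control and 1062 in Nrp1L/L, a log2 ratio of 1.04 (0.85 to 1.23). In other cells the Gbp2 ratio was 1.80 (1.58 to 2.02) in CD3 cells and 2.33 in C1q macrophages. It was 1.22 in monocytes with Cxcl9 and Cxcl10 and 0.17 (-0.37 to 0.68) in maturing monocytes. Irf1, a transcription factor induced by interferon gamma, had 122 and 217 CPM (0.83, 0.41 to 1.25), and was at 0.56 without cells with cell cycle UMIs. Both were higher in Nrp1L/L.

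Gbp3 had 152 CPM in control and 290.4 in Nrp1L/L, and the immunity-related GTPase gene Igtp 93.7 and 214 (log2 ratios 0.94 and 1.19). Slamf8, a myeloid surface receptor, had 94.6 and 238 CPM (1.33), and Fam26f 75.3 and 238 (1.66). Cd40, the receptor for T cell help, had 24.5 and 96.8 CPM (1.98), and Socs1, a feedback inhibitor of this pathway, 25.4 and 79.2 (1.64). All 6 were higher in Nrp1L/L with intervals above 0. Irgm1, another GTPase gene, was at 0.86, and at 0.39 without cells with cell cycle UMIs.

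Serpina3g, a serine protease inhibitor family member, had 12 UMIs (10.5 CPM) in 8 of 149 control members and 43 UMIs (126 CPM) in 16 of 41 Nrp1L/L members, a log2 ratio of 3.58 (2.64 to 4.64). CD3 cells make this gene themselves, with 251 and 279 CPM in 53.3% and 46.2% of cells, so they give no background for it, and the part of free RNA in its share was not tested. The Serpina3g ratio was 2.44 in C1q macrophages, 1.59 in monocytes with Cxcl9 and Cxcl10 and 1.41 in maturing monocytes. It was above 0 in each of these populations.

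Per cell, the interferon gamma list had a median of 11.5 UMIs per 10000 (range 0 to 81.6) in control and 25.6 (0 to 169) in Nrp1L/L members. Of the 41 Nrp1L/L members, 32 lay above the control median, and the ranges overlapped. Other populations had list medians of 0.87 (maturing monocytes), 1.07 (monocytes with Cxcl9 and Cxcl10) and 1.55 (C1q macrophages), beside all-gene medians of 0.00, 0.02 and -0.10. With the chemokine limits lifted, cells with the score had a list median of 1.46 beside -0.03 over all genes. That set holds the members again. Cells chosen on Cxcl9 and Cxcl10 were 14.6% of it in control and 53.3% in Nrp1L/L. It is thus not a separate population, and the part of this unequal mix in its median was not tested. The higher level was seen in members, maturing monocytes, monocytes with Cxcl9 and Cxcl10 and C1q macrophages, and differences between them were not tested.

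Of 28 measured type I interferon genes, 16 were higher, 1 was lower (Ddx58, with 36 and 6 UMIs) and 25 lay above 0, with a median of 0.69. Isg15, a ubiquitin-like modifier, had 1024 CPM in control and 1751 in Nrp1L/L (log2 ratio 0.77, 0.63 to 0.92). Irf7, which amplifies interferon production, had 640.3 and 1428 CPM (1.16, 0.99 to 1.33). Ifit3, an inhibitor of viral replication, had 101 and 393 CPM (1.96, 1.59 to 2.34).

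Ly6a had 351 and 736 CPM (1.07, and 1.79 without cells with cell cycle UMIs), Ifit2 a ratio of 2.10 and the GTPase gene Ifi47 one of 1.19. Rtp4 (0.01), Oas1a (-0.03) and Oasl2 (0.14) lay near 0, so the list was not higher throughout. Per cell, the list had a median of 84.4 UMIs per 10000 in control and 134 in Nrp1L/L, with 27 of 41 Nrp1L/L members above the control median. Its median log2 ratio was 0.49 in maturing monocytes, 0.70 in monocytes with Cxcl9 and Cxcl10 and 0.99 in C1q macrophages. With the chemokine limits lifted it was 1.13, in a set that holds the members and the cells chosen on Cxcl9 and Cxcl10.

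MHC class I genes lay mostly above 0 by little. Of 17 measured, 15 were above 0, but only 1 was 1.5-fold higher and 2 lower, with a median of 0.29. B2m, the shared light chain, had 5684 CPM in control and 7612 in Nrp1L/L (log2 ratio 0.42, 0.36 to 0.49), and H2-K1 979 and 1449 (0.57). The immunoproteasome subunit gene Psmb9 was at 0.67, and at 0.46 with the rule on depth-scaled UMIs. The lower genes, H2-Q4 and H2-Q6, are near-identical to other class I genes and had 6 and 3 UMIs in Nrp1L/L, so their values are uncertain, and they were at 0.14 and -0.15 without the chemokine limits.

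MHC class II genes, which interferon gamma can also induce through CIITA, were not higher. None of 6 was 1.5-fold higher and 1 was lower, H2-DMa, with 821 CPM in control and 528 in Nrp1L/L (log2 ratio -0.64), and the list median was -0.32. Cd74 had 4622 and 4045 CPM (-0.19) and H2-Ab1 a ratio of -0.18. The H2-DMa value was -0.52 without cells with cell cycle UMIs and -0.13 without the chemokine limits. The list median was 0.73 in C1q macrophages, 0.46 in maturing monocytes and -0.63 in monocytes with Cxcl9 and Cxcl10, and these differences were not tested.

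**Figure D5:**
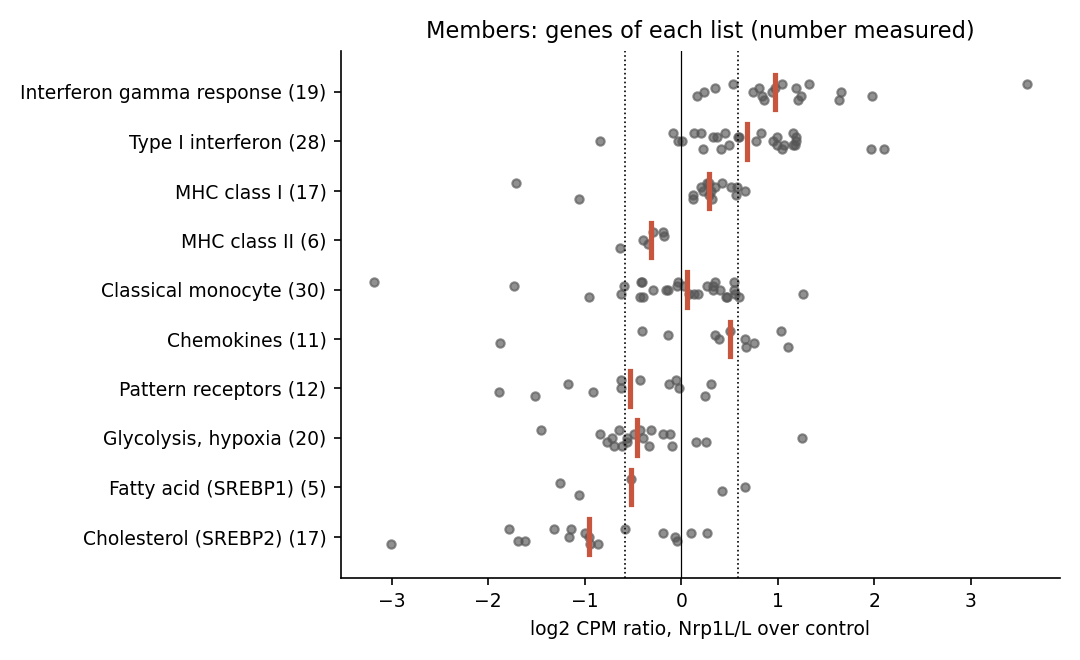
Log2 ratio of Nrp1L/L over control CPM in members (horizontal axis) for each measured gene (dots) of the gene lists (vertical axis), with list medians as red bars and 1.5-fold as dotted lines. Interferon gamma genes have a median of 0.97 and cholesterol synthesis genes one of -0.95.

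Chemokines went in different directions. Cxcl2, a neutrophil attractant, had 2864 CPM in control and 777 in Nrp1L/L members, a log2 ratio of -1.88 (-2.07 to -1.70). It was found in 112 of 149 control members (75.2%) and 11 of 41 Nrp1L/L members (26.8%), against 48.8% and 6.21% of CD3 cells at 74.3 and 8.96 CPM. Cxcl2 was thus lower in Nrp1L/L in members and in CD3 cells alike. Its ratio was -1.97 in maturing monocytes and -1.71 in C1q macrophages, and in members -1.15 without cells with cell cycle UMIs and -2.50 with the rule on depth-scaled UMIs.

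The CCR2 ligand genes Ccl2 and Ccl7 had 4321 and 1997 CPM in control and 6139 and 3191 in Nrp1L/L, log2 ratios of 0.51 and 0.68. Ccl7 turned to -0.06 with the rule on depth-scaled UMIs and to -0.20 without the chemokine limits. Of 11 measured chemokines, 5 were higher and 1 lower with a median of 0.51, which was -0.20 without those limits. Ccl24 was at 1.11 and Ccl12 at 0.75, each from 8 Nrp1L/L cells, and without each gene's highest cell they were at 0.26 and 0.34. Ccl12 was at 2.13 without cells with cell cycle UMIs. Ccl5 was at 0.66, and at 0.09 without cells with cell cycle UMIs.

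Of 12 measured pattern receptors, 6 were lower and 0 higher in Nrp1L/L members, with a median of -0.53. Clec4n, the fungal receptor dectin-2, had 490 CPM in control and 217 in Nrp1L/L (log2 ratio -1.17, -1.54 to -0.82), and Clec4d, a related lectin, 335 and 117 (-1.51). Msr1, a scavenger receptor, had 399 and 211 CPM (-0.92). Trem1, which amplifies inflammatory signals, was at -1.89 (-3.56 to -0.59) from 62 and 5 UMIs. Tlr2 (-0.13) and the adaptor gene Myd88 (-0.05) lay near 0.

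Clec4e (Mincle) was at -0.63, and at -0.52 without cells with cell cycle UMIs. C5ar1, the receptor for complement C5a, had 429 CPM in control and 126 in Nrp1L/L (-1.77, -2.25 to -1.32), while Ccr2 was at 0.14 (-0.09 to 0.35). Of 9 chemotactic receptors, 2 were higher and 2 lower, with a median of -0.22.

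Of 11 inflammatory cytokine list genes, 1 was higher (Il6) and 3 lower, with a median of -0.37. Tnf was at -1.72 from 77 and 7 UMIs, and at -0.36 without the chemokine limits. Nfkbia, the inhibitor of NF-kappaB, had 1425 and 877 CPM (-0.70), and was at -0.24 without cells with cell cycle UMIs. Il1b had 2150.5 and 1833 CPM (-0.23). Il6 rested on 26 and 16 UMIs and turned from 1.04 to -0.92 without its highest cell in each library.

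Cholesterol synthesis genes, targets of the transcription factor SREBP2, were lower as a list. Of 17 measured, 11 were lower and 0 higher, with a median of -0.95. Fdps, farnesyl diphosphate synthase, had 272 CPM in control and 123 in Nrp1L/L (log2 ratio -1.14, -1.65 to -0.68). Msmo1 had 165 and 85.1 CPM (-0.95) and Cyp51 117 and 38.1 (-1.62), and both act late in the pathway. All 3 were lower in Nrp1L/L with intervals under 0, and Cyp51 was at -2.66 without its highest cells.

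Sqle, squalene epoxidase, was at -1.79 from 81 and 7 UMIs, and at -3.36 without its highest cells. Hmgcs1, near the entry of the pathway, was at -0.86. Mvk and Nsdhl had 25 and 20 UMIs in control and 0 in Nrp1L/L. Ebp (0.11) and Srebf2 itself (0.27) were not lower. The list had a median of -0.23 in maturing monocytes, -0.85 in monocytes with Cxcl9 and Cxcl10 and 0.12 in C1q macrophages. It was not compared in CD3 cells, but Fdps there had 186 CPM in control and 73.6 in Nrp1L/L (-1.34, -1.52 to -1.17). The lower level of Fdps was thus not limited to members. Its ratio was -1.44 in monocytes with Cxcl9 and Cxcl10, 0.12 in maturing monocytes and -0.03 in C1q macrophages.

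Per cell, the cholesterol list had a median of 7.73 UMIs per 10000 (range 0 to 58.9) in control and 4.30 (0 to 40.5) in Nrp1L/L members, of which 12 lay above the control median. In fatty acid synthesis, 5 of 16 SREBP1 list genes were measured, with 1 higher and 2 lower and a median of -0.52, which was 0.42 at a minimum of 5 UMIs, so the list has no settled direction. Acly, which makes acetyl-CoA from citrate, was at -1.26, and Srebf1 at 0.42 (-0.97 to 1.67) from 20 and 8 UMIs.

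Of 20 glycolysis and hypoxia genes, 7 were lower and 1 higher, Hk2, with a median of -0.46. The glycolytic enzyme genes Pkm and Eno1 had 2582 and 1211 CPM in control and 1648 and 748 in Nrp1L/L (-0.65 and -0.69), and were at -0.37 and -0.28 without cells with cell cycle UMIs. Of 30 oxidative phosphorylation genes, 5 were lower and 0 higher, with a median of -0.22. Of 6 iron and metal genes, 3 were lower and 0 higher, among them Fth1, the ferritin heavy chain, at -0.70 and Hmox1, which breaks down haem, at -1.28. Fth1 was at -0.47 among cells with a score of at least 5.

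Lipid handling genes had 7 of 15 lower and 2 higher, with a median of -0.33. Fabp5, a fatty acid carrier, had 751 CPM in control and 285 in Nrp1L/L (-1.40), and the lipid droplet coat gene Plin2 656 and 296 (-1.15). Of 25 macrophage maturation genes, 8 were lower and 2 higher, with a median of -0.35. Ctsl, a lysosomal protease, was at -1.55, the lipid receptor gene Trem2 at -1.33 and Gpnmb at -2.12 from 102 and 7 UMIs, while Apoe (-0.08) and Csf1r (0.13) lay near 0. The control library held 239 C1q macrophages and the Nrp1L/L library 68, and the part of free RNA in these values was not tested.

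Genes of monocyte identity showed no common shift. Of 30 classical monocyte genes, 2 were higher and 5 lower, both smaller shares than over all genes, with a median of 0.06. The matrix genes Vcan and Thbs1 were at -1.73 and -0.95 and F13a1 at -0.60, which was -0.55 with the rule on depth-scaled UMIs, while Lyz1 was at 1.26. The granule protease gene Prtn3, also made by early monocyte precursors, had 94 UMIs in control and 3 in Nrp1L/L (-3.23, -5.53 to -1.63), and was at -1.99 without the chemokine limits and -1.92 without cells with cell cycle UMIs.

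Of 19 monocyte transcription factors, 4 were higher and 1 lower, with a median of 0.11, and the higher share was close to the background. Klf4, needed for monocyte formation, had 259 CPM in control and 434 in Nrp1L/L (0.74), and Irf8 250.5 and 422 (0.75). These were 0.50 and 0.56 without each gene's highest cells, and 0.52 and 1.58 without the chemokine limits. Cebpb (-0.29) and Spi1 (0.31) lay within 1.5-fold. Suppressive myeloid genes had 6 of 15 lower and 0 higher (median -0.09), adhesion genes 3 of 13 higher and 0 lower (0.16), and immediate early genes 1 of 18 higher and 3 lower (0.10).

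Ranked by the interval bound nearest 0, the lower genes were Bcl2a1a, Pf4, Spp1, Trem3, Cxcl2, Prtn3, Swt1, Bcl2a1d, Appbp2 and Tnfrsf23. Bcl2a1a (log2 ratio -3.76) and Bcl2a1d (-2.27) are near-identical survival genes between which reads cannot be split with confidence. Trem3 had 122 UMIs in control and 4 in Nrp1L/L (-3.19), and was at -1.31 without the chemokine limits. Without cells with cell cycle UMIs Bcl2a1a was at -4.70 and Trem3 at -4.77. Swt1, Appbp2 and Tnfrsf23 had 38, 37 and 36 UMIs in control and 0 in Nrp1L/L, at least 3.78-fold, at least 3.68-fold and at least 3.58-fold lower. Of the 38 Swt1 UMIs, 20 were in 1 cell.

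Spp1 had 717 CPM in 58 of 149 control members (38.9%) and 153 in 5 of 41 Nrp1L/L members (12.2%), a log2 ratio of -2.23 (-2.67 to -1.83). CD3 cells held Spp1 at 208 and 302 CPM in 33.4% and 12.9% of cells, so the share of Nrp1L/L members with Spp1 was not above that of CD3 cells, and the part of free RNA in the ratio was not tested. The ratio was -1.58 without cells with cell cycle UMIs and -3.21 without the chemokine limits. Pf4, platelet factor 4, had 137 UMIs in control, 47 of them in 1 cell, and 3 in Nrp1L/L. Its share of cells was 15.4% in control members and 15.2% in control CD3 cells, while its level was 120 CPM in the former and 18.0 in the latter. In Nrp1L/L CD3 cells Pf4 was in 1.19% of cells at 1.72 CPM. The log2 ratio of Pf4 was -3.77 in members, -3.39 (-4.57 to -2.39) in CD3 cells and -2.82 in C1q macrophages. The lower level was thus not limited to members. The part of free RNA in the Pf4 values was not tested.

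The higher genes by the same ranking were Mcpt8, Zfp503, 9930111J21Rik2, Serpina3g, Ccdc90b, Ccar2, Rnf216, Nvl, Tk2 and Mtg2. In 8 of these 10, at least 50% of the Nrp1L/L UMIs came from 1 cell, as in Zfp503 and Ccdc90b, where all 22 and 18 UMIs did. Mcpt8 had 0 UMIs in control and was at least 24.6-fold higher, all from 1 cell. Serpina3g and Nvl were spread over more cells, and they led the ranking once each gene's highest cells were left out, followed by Ifit3, Hdc and Inpp4a. Of the 914 higher genes, 99 (10.8%) had at least 50% of their Nrp1L/L UMIs in 1 cell, against 24 (2.15%) of the 1114 lower genes in control.

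Cell cycle genes were sparse, with 3 of 30 measured. Cenpa was at -1.08 from 71 and 10 UMIs and Pcna at -1.34 from 51 and 6 (-0.48 without the chemokine limits), and Hmgb2 had 180.4 and 161 CPM (-0.16). The direction for the list rests on these genes alone. The whole list summed to 364 CPM in control and 249 in Nrp1L/L members, so Hmgb2 gave a large part of its UMIs.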

How the data were processed

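Single-cell 3' RNA counts of 2 libraries, 1 per genotype, were used. Per the labels and the submitters' processing notes, the authors deposited whole-number UMI counts per gene and barcode, made with Cell Ranger 1.3 on mm10, over 27998 genes. No further filter on cells was applied. Members and gene lists were chosen with earlier results of these data known.

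UMIs were summed per population and library and given as CPM with exact intervals at 95% (Poisson, conditional binomial, Clopper-Pearson). Comparisons used genes with at least 20 UMIs over both sides, in each library for members against maturing cells. A gene counted as called when it differed at least 1.5-fold. A library at 0 was set to a floor of 3 counts. With 1 library per genotype no test was made.

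Named genes were those of the rule and markers. For the genotypes they were the 10 higher and 10 lower genes with the interval bound farthest from 0. For members against maturing cells they were 15 higher and 10 lower by the smaller bound of both libraries. In each list they were those with most UMIs. Rule genes, Xist, mitochondrial, ribosomal and receptor segment genes were excluded from rankings. Genes named outside this rule were chosen after their values were seen. Of the listed symbols, 2 matched through RefSeq synonyms and 7 had no match.

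Doublets were kept. Scrublet marked 8 control barcodes (0.611%) and 3 Nrp1L/L barcodes (0.231%), the latter too few to rely on, so an alternative left out the 8 and the 26 Nrp1L/L barcodes with the highest 2% of scores. Other alternatives changed the scaling (edgeR 4.0.16, for TMM factors only, and median of ratios), UMI minimum, score minimum, depth (scaled to 8000 or thinned to 2500 UMIs), cell cycle cells, chemokine limits, other-cell markers and each gene's highest cell. Python 3.11.15, numpy 2.4.6, scipy 1.17.1, pandas 2.3.3, scanpy 1.11.5 and matplotlib 3.10.9 were used. The scripts were tested on simulated data.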

Additional observations from a re-analysis of the deposited data

Results flagged for a closer look

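Of 282 list genes measured in both libraries, 13 had log2 ratios of members over maturing monocytes past 1.5-fold in opposite directions. Over all 2759 genes 90 did. For 7 of the 13 list genes, both counting intervals were off 0, and these are given here. The difference between the libraries was not tested, and the Nrp1L/L values rest on 16 maturing cells. Irf8, a transcription factor of monocytes and dendritic cells, was at -0.67 in control and 0.77 in Nrp1L/L. Ifit3, a type I interferon gene, was at -1.71 and 0.94, and Socs1, a cytokine feedback inhibitor, at -1.13 and 3.21. The cholesterol synthesis genes Msmo1 and Hmgcs1 went the other way, at 0.78 and 1.05 in control and -1.49 and -1.44 in Nrp1L/L. The lysosomal membrane gene Cd63 was at -0.88 and 2.88, and the receptor gene Gpr35 at -0.70 and 1.92.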

How the results depend on the processing

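No paired analysis was possible because each genotype is 1 library. Cells were also thinned to 2500 UMIs, with the minimum lowered to 3 for Lyz2 and 1 for the score and the other limits kept. Members were then 15.1% of control and 4.77% of Nrp1L/L barcodes, a difference of 10.3 points. Depth and limits changed together here, so their parts cannot be told apart. Without the chemokine limits, an alternative chosen after seeing the data, the shares were 15.1% and 6.92%, and 175 genes were lower in members of both libraries. Counts of genes higher and lower in Nrp1L/L members were 403 and 490 at 50 UMIs, 2085 and 1730 at 5 UMIs, and 563 and 1742 without each gene's highest cell, which takes more from the library with fewer cells. Counts of genes higher and lower in members than in maturing cells were 101 and 47 at 50 UMIs and 453 and 402 at 5 UMIs, where by construction fewer or more genes were compared.

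Genotype ratios that changed sign were those of Ccl7 (-0.056 with the rule on depth-scaled UMIs, -0.20 without the chemokine limits), Ptgs2 (0.0062 without cells with cell cycle UMIs), and H2-Q4 (0.14), Cxcr4 (0.28) and Pfkp (0.33) without the chemokine limits. Il6 was at -1.09 without members with other-cell markers, added after seeing the data, and at -0.92 without its highest cells, where Treml4 was at -0.33 and Elovl5 at -0.022. The cell cycle list, with 1 gene left, had a median of 0.46 without cells with cell cycle UMIs. Ccl12 was at 0.0018 for control members over maturing cells without the chemokine limits. The cause of these changes was not tested. TMM scaling moved the Nrp1L/L ratios of members over maturing cells by 0.16 on the log2 scale. The depth of 41 Nrp1L/L members and 16 maturing cells limits every ratio of a gene with few UMIs.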
